A study of Rattus norvegicus with 15 samples.

Results

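Striated muscle genes were followed in cultured rat aortic smooth muscle cells (SMC): the genes of 10 proteins best known from heart and skeletal muscle, Acta1, Actc1, Tnnc1, Tnnt2, Tnnt3, Myh3, Ckm, Csrp3, Ankrd1 and Des. They were taken by symbol from an RNA-seq table of 32623 gene entries, where each of the 10 symbols was found once. The 15 libraries fall into 4 groups. Myocd-LSD1 (4 libraries) is labelled as a line with a fusion of myocardin and the demethylase LSD1, used per the series design to take the histone mark H3K4me2 off SMC genes. Myocd-LSD1NF (4 libraries) is a second line, and the labels do not say what NF means. PDGF-BB (3 libraries) are SMC labelled WT and starved for 48 h and then kept for 24 h with human recombinant platelet-derived growth factor BB, a mitogen of SMC, at 30 ng/ml. Ctrl SMC (4 libraries) are untreated SMC labelled WT. All were grown in serum and starved for 72 h in serum-free and insulin-free medium before RNA was taken, and all are labelled aortic SMC. Not given in the sources used here are whether a line is 1 clone, the promoter of its fusion and whether replicates are separate cultures. The p-values below therefore speak of the spread among these libraries, which may be technical. An effect of a fusion and any other way in which a line departs from Ctrl SMC cannot be told apart.

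The genes of the fusion partners do not check the labels. Myocd, the gene of myocardin, had 0.56, 0.19, 0.34 and 0.15 TPM in Myocd-LSD1, 41.1, 49.6, 29.5 and 18.3 in Myocd-LSD1NF and 23.1, 21.2 and 14.8 in PDGF-BB, against 26.8, 26.2, 27.6 and 30.6 TPM in Ctrl SMC. It was lower in Myocd-LSD1 than in every other library (log2 fold change against Ctrl SMC -4.47 ± 0.24, limma adjusted p = 4.73e-09). Kdm1a, the gene of LSD1, had 58.7 to 67.65 TPM in Myocd-LSD1 and 50.4 to 57.9 TPM in Ctrl SMC (0.22 ± 0.10, adjusted p = 0.0874). These values do not show a fusion transcript, and whether its reads were counted to either gene is unknown. Another gene set the line apart: Uba1y, a Y-linked gene, had 237, 66.3, 274 and 107 TPM in Myocd-LSD1 and at most 0.35 TPM in the other 11 libraries, while Y-linked Eif2s3y had 47.8 to 244 TPM in all 15. Uba1y and Eif2s3y were picked with their values known, and the part of any difference in origin in the results below was not tested.

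Sarcomeres of striated muscle slide thin filaments of actin, tropomyosin and the calcium-sensing troponin complex along thick filaments of myosin, between Z discs held together by desmin. Smooth muscle has no sarcomeres or Z discs. Its thin filaments are built from its own actins, Acta2 and Actg2, and calcium acts through phosphorylation of myosin rather than through troponin. Several striated actin and Z disc genes share with SMC contractile genes a dependence on serum response factor, which binds the CArG box and is coactivated by myocardin.

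RefSeq promoters (build GRCr8) were matched by symbol for 6 of the 10 genes, Acta1, Actc1, Tnnt2, Myh3, Ckm and Des, and none was used for Tnnc1, Tnnt3, Csrp3 and Ankrd1. The 120 bases before the annotated start are shown for 4 genes that were lower in Myocd-LSD1 and PDGF-BB and for Des, which was higher in Myocd-LSD1. Capitals mark matches, on either strand, to the CArG box, to CATTCC (the core of the site of TEAD factors), to TATAAA and to the E-box CANNTG. No marked matches overlap.
Acta1, chr19:68784195-68784314, strand -: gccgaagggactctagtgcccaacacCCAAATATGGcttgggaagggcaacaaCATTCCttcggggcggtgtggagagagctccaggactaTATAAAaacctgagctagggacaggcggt
Tnnt2, chr13:49819003-49819122, strand +: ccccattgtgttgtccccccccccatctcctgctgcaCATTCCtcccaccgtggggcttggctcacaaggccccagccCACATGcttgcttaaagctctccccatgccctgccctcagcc
Myh3, chr10:52269065-52269184, strand +: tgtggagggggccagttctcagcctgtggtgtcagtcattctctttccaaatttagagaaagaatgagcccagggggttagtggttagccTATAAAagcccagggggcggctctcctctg
Ckm, chr1:88189341-88189460, strand +: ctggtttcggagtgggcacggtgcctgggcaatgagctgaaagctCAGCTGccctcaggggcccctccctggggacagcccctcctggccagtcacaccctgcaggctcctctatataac
Des, chr9:84299506-84299625, strand +: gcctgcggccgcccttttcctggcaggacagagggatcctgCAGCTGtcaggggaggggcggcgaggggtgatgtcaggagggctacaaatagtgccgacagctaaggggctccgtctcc
Acta1 holds a CArG box that begins 94 bases before the start, CATTCC at 67 bases and TATAAA at 29 bases. Of all 33469 RefSeq promoters of this length 0.681% hold a CArG box, 5.98% hold CATTCC, 6.66% hold TATAAA and 39.4% hold CANNTG. In the upstream start of Tnnt2 CATTCC begins at 83 bases and an E-box at 42. Myh3 holds TATAAA at 30 bases, and Ckm and Des each hold 1 E-box, at 75 and 79 bases. The window of Actc1 and that of a second Tnnt2 start hold none of the 4 motifs. A match describes these letters and is no evidence of binding.

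Expression is given as TPM, length-scaled transcript abundances that the authors brought to the same total in every library. TPM keep no sequencing depth, so the counts behind each value are unknown, and the labels do not say how reads shared by the near-identical actin genes were assigned, so actin values are uncertain to that extent. A library held 11306 to 11702 genes at 1 TPM or more. Tests are limma on log2(TPM + 1) over the 12207 genes at 1 TPM or more in at least 3 libraries, and a gene is called at a Benjamini-Hochberg adjusted p under 0.05. Log2 fold changes are on that scale, which understates changes of low genes, and are given ± SE. Libraries 2 and 4 of Myocd-LSD1 resembled each other (r = 0.987 over tested genes) more than the other pairs of that line (0.961 to 0.981), and results are given without them where that matters. Myocd-LSD1NF 4 also stood apart, at r = 0.963 to 0.967 with its group against 0.983 to 0.988 among libraries 1 to 3. In these bulk samples fewer cells that express a gene and less RNA per cell cannot be told apart.

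The label aortic SMC was checked against 8 smooth muscle markers, all of which passed the filter on low values. Their summed level was 3438 to 6103 TPM in Myocd-LSD1, 9531 to 20498 in Myocd-LSD1NF, 5342 to 7174 in PDGF-BB and 17621 to 21966 in Ctrl SMC. Acta2 and Tagln made up most of each sum. In Myocd-LSD1 the marker Myocd had at most 0.56 TPM, Actg2 had 0.25 to 1.94 and Cnn1 had 6.24 to 127.77 TPM. Actg2 had 0.21 to 5.77 TPM in Myocd-LSD1NF. Of 6 skeletal myoblast markers none passed the filter on low values. Myf5 was listed at 0 in every library. The myoblast sums were 0 to 0.76, 0 to 0.1, 0.11 to 0.6 and 0.17 to 3.13 TPM in the 4 groups in the same order. Of 8 cardiomyocyte markers none passed, Nkx2-5, Myl7 and Myh6 were listed at 0 in every library, and no sum was above 1.12 TPM. Endothelial markers (5 of 6 matched, none passing, Emcn at 0 in every library) summed to at most 2.13 TPM. Fibroblast markers (4 of 6 passing, none at 0 throughout) summed to 7072 to 25207 TPM in Myocd-LSD1, 3184 to 6914 in Myocd-LSD1NF, 3674 to 4285 in PDGF-BB and 2472 to 6935 in Ctrl SMC. Nearly all of each sum was Col1a1, a collagen gene that SMC also express. Of the others, Lum was lower in Myocd-LSD1 than in Ctrl SMC (log2 fold change -3.43, limma adjusted p = 2.3e-05). Pdgfra and Dpt were not called there (adjusted p = 0.614 and 0.0794), and Dcn and Fap did not pass the filter.

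In Ctrl SMC 2 of the 10 genes ranked with abundant SMC transcripts. Tnnc1, the calcium-binding troponin C of heart and slow muscle, averaged 918 ± 215 TPM (SD, n = 4) and had rank 177 of all gene entries. Ankrd1, a cardiac ankyrin repeat protein that binds titin, averaged 912 ± 212 TPM at rank 178. Acta1, the skeletal muscle actin, averaged 155 ± 60.8 TPM. Myh3 averaged 19.4 ± 17.9 TPM and Tnnt2 11.8 ± 3.24 TPM, and Tnnt3, Ckm and Actc1 averaged 1.78 to 2.73 TPM. Des stayed under 1 TPM in 3 of the 4 control libraries, and Csrp3, muscle LIM protein of the Z disc, was not expressed: it was listed at 0 in 12 libraries and at 0.07, 0.08 and 0.07 TPM in Myocd-LSD1 1, PDGF-BB 2 and Ctrl SMC 4. Actc1 and Csrp3 did not pass the filter on low values, and the other 8 genes did. Myh3 and Ckm passed it only through Ctrl SMC, so a lower value elsewhere was built into their being tested.

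**Figure D1:**
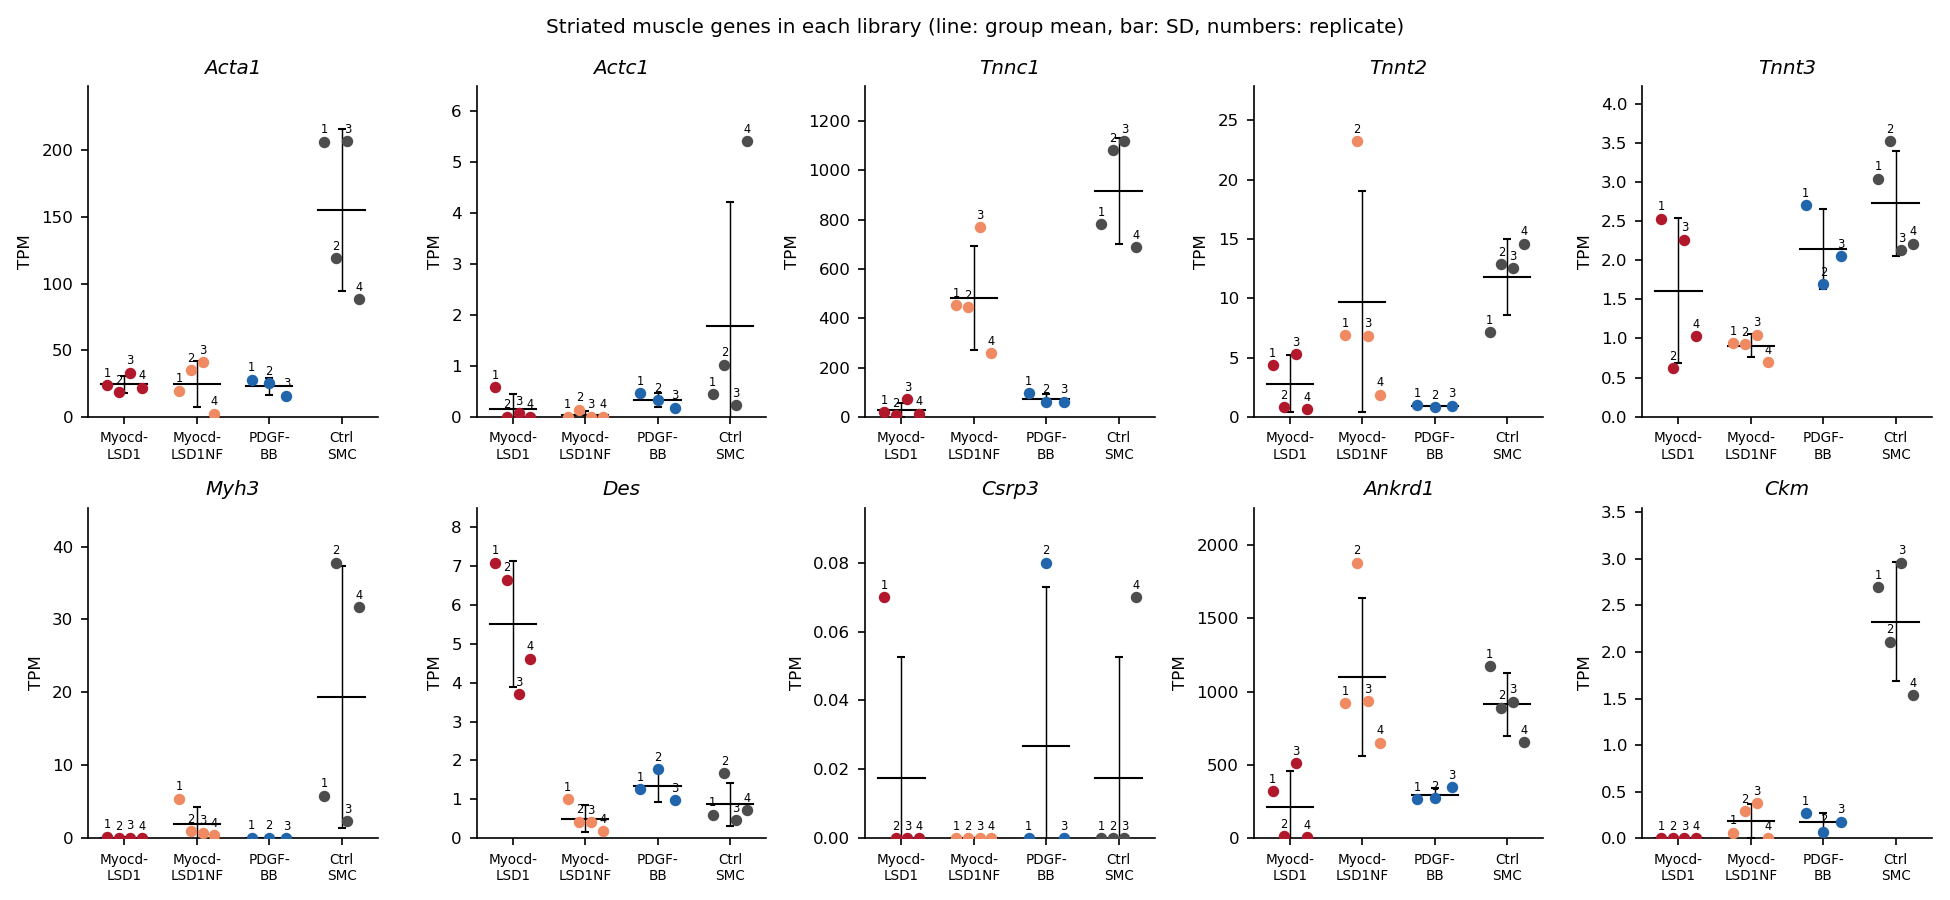
TPM of the 10 genes in each library by group (points, numbered by replicate), with the group mean (line) and SD (bar, cut off at 0), each panel on its own linear axis from 0. Acta1 lies between 2.45 and 41.24 TPM in the 11 libraries outside Ctrl SMC and between 88.15 and 206.94 TPM in Ctrl SMC, while Des is highest in Myocd-LSD1.

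Acta1 was lower in every group than in Ctrl SMC. It had 23.6, 18.65, 33.25 and 21.9 TPM in Myocd-LSD1, 19.65, 34.8, 41.2 and 2.45 in Myocd-LSD1NF and 27.99, 25.4 and 15.8 in PDGF-BB, against 206, 119, 207 and 88.15 TPM in Ctrl SMC. No library of the first 3 groups reached the lowest control, and Myocd-LSD1NF 4 stood far below its own group. The group means were 15.7%, 15.8% and 14.8% of the control mean. The log2 fold change was -2.56 ± 0.59 in Myocd-LSD1 (adjusted p = 0.00348), -3.02 ± 0.59 in Myocd-LSD1NF (adjusted p = 0.0154) and -2.65 ± 0.63 in PDGF-BB (adjusted p = 0.00690). The call in Myocd-LSD1NF was lost in a fit of the compared groups alone (adjusted p = 0.0866) and without Ctrl SMC 1 (adjusted p = 0.0589). Between Myocd-LSD1 and Myocd-LSD1NF the difference was 0.45 ± 0.59 (95% interval -0.80 to 1.71, adjusted p = 0.589), and without Myocd-LSD1NF 4 it was -0.34.

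Set against Acta2, the smooth muscle actin, Acta1 took a different share in each line. Acta2 had 1634, 1585, 2894 and 2196 TPM in Myocd-LSD1, 10748, 10729, 11982 and 3979 in Myocd-LSD1NF and 3233, 2363 and 2068 in PDGF-BB, against 9197, 9789, 10783 and 9103 TPM in Ctrl SMC. Acta1 thus amounted to 1.19 ± 0.185% of Acta2 in Myocd-LSD1, 0.228 ± 0.132% in Myocd-LSD1NF and 0.901 ± 0.158% in PDGF-BB, against 1.59 ± 0.595% in Ctrl SMC (SD, n = 4, 4, 3 and 4). The 4 Myocd-LSD1NF ratios, from 0.0616% to 0.344%, lay below all others, and the Myocd-LSD1 and PDGF-BB ratios overlapped those of Ctrl SMC. In Myocd-LSD1NF the log2 fold change of Acta2 was -0.17 ± 0.31 (95% interval -0.82 to 0.48, adjusted p = 0.839), and that of the enteric actin Actg2 was -3.15 ± 0.41 (adjusted p = 0.000739). The ratio was chosen after the values were seen and was not tested.

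**Figure D2:**
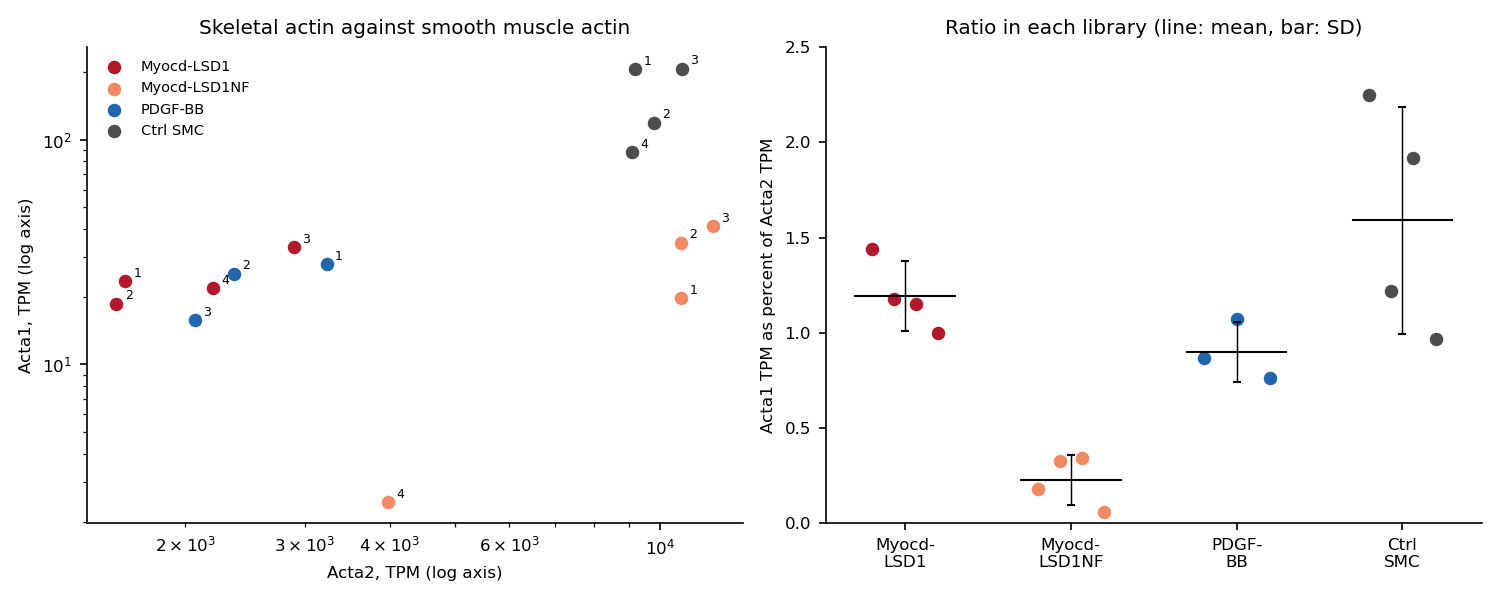
Left, Acta1 against Acta2 TPM in each library (both axes logarithmic, numbers are replicates); right, Acta1 as a percentage of Acta2 in each library with mean (line) and SD (bar). Myocd-LSD1NF libraries 1 to 3 have Acta2 of 10729 to 11982 TPM with Acta1 of 19.65 to 41.24 TPM, and all 4 ratios of that line are below the rest.

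Actc1, the actin of heart muscle, was at the edge of detection. It had 0.58, 0, 0.07 and 0 TPM in Myocd-LSD1, 0, 0.14, 0 and 0 in Myocd-LSD1NF and 0.46, 0.33 and 0.18 in PDGF-BB, against 0.45, 1.02, 0.23 and 5.4 TPM in Ctrl SMC. Only controls 2 and 4 reached 1 TPM, and control 4 held most of the control sum. With no filter on low values none of its 4 comparisons was called (adjusted p from 0.0938 to 0.857).

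Tnnc1 fell steeply in Myocd-LSD1 and in PDGF-BB. It had 18.5, 6.69, 71.6 and 12.5 TPM in Myocd-LSD1, 453, 445, 769 and 258 in Myocd-LSD1NF and 95.3, 61.5 and 61.1 in PDGF-BB, against 781, 1083, 1119 and 689.8 TPM in Ctrl SMC. The Myocd-LSD1 and PDGF-BB libraries lay far below the controls, and Myocd-LSD1NF overlapped them through library 3. Mean TPM in Myocd-LSD1 was 2.98% of the control mean (log2 fold change -5.52 ± 0.51, adjusted p = 1.46e-06) and in PDGF-BB 7.91% (-3.64 ± 0.55, adjusted p = 0.000333). In Myocd-LSD1NF it was 52.4%, and this was not called (-1.005 ± 0.51, 95% interval -2.09 to 0.08, adjusted p = 0.363). Set against each other, Myocd-LSD1 was lower than Myocd-LSD1NF (-4.52 ± 0.51, adjusted p = 1.24e-05). Without Myocd-LSD1 libraries 2 and 4 Tnnc1 was still lower than in Ctrl SMC (-4.58 ± 0.47, adjusted p = 1.93e-05).

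The partners of troponin C in the troponin complex were far scarcer. Tnnt2, the tropomyosin-binding troponin T of heart, had 4.34, 0.8, 5.31 and 0.64 TPM in Myocd-LSD1, 6.86, 23.25, 6.83 and 1.86 in Myocd-LSD1NF and 0.97, 0.82 and 0.95 in PDGF-BB, against 7.13, 12.9, 12.5 and 14.6 TPM in Ctrl SMC. The PDGF-BB values lay close together near 1 TPM, while each line was spread over several-fold. Tnnt2 fell in PDGF-BB (-2.70 ± 0.59, adjusted p = 0.00395) and in Myocd-LSD1 (-1.98 ± 0.54, adjusted p = 0.0115). The Myocd-LSD1 call was lost without libraries 2 and 4 (-1.10 ± 0.57, adjusted p = 0.184). Myocd-LSD1NF was not called (-0.62 ± 0.54, 95% interval -1.78 to 0.54, adjusted p = 0.635). Between Myocd-LSD1 and Myocd-LSD1NF it was not called either (-1.36 ± 0.54, adjusted p = 0.0706), but was with array weights (adjusted p = 0.00200), without Myocd-LSD1 3 (0.0325) or without Myocd-LSD1NF 4 (0.00935).

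Tnnt3, the troponin T of fast skeletal muscle, was low throughout. It had 2.53, 0.62, 2.26 and 1.03 TPM in Myocd-LSD1, 0.94, 0.93, 1.05 and 0.7 in Myocd-LSD1NF and 2.7, 1.69 and 2.05 in PDGF-BB, against 3.04, 3.52, 2.13 and 2.21 TPM in Ctrl SMC. Every Myocd-LSD1NF library lay below every control, and the other groups overlapped the controls. The fall in Myocd-LSD1NF was -0.95 ± 0.23 (adjusted p = 0.0442), and this call was lost without any 1 of the Myocd-LSD1NF, PDGF-BB or Ctrl SMC libraries, in 11 fits (adjusted p up to 0.151). The call was also lost with a pseudocount of 0.1 (0.0572) and with no filter (0.0528). Myocd-LSD1 missed the threshold (-0.57 ± 0.23, adjusted p = 0.0721), but passed under median-of-ratios scaling (0.0388), with array weights (0.00122), without library 1 (0.0239) and without library 3 (0.0361). PDGF-BB was not called (-0.24 ± 0.25, 95% interval -0.77 to 0.29, adjusted p = 0.508). Myocd-LSD1 and Myocd-LSD1NF differed by 0.38 ± 0.23 (adjusted p = 0.218), and by 0.84 ± 0.19 without Myocd-LSD1 libraries 2 and 4 (adjusted p = 0.00797).

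Of the inhibitory troponins, Tnni1 reached at most 0.69 TPM, Tnni2 0.06 and Tnni3 0.99 TPM in any library. In TPM, which is per length, Tnnc1 stood at 11.4 ± 6.62 times Tnnt2 in Myocd-LSD1, 84.2 ± 52.8 times in Myocd-LSD1NF and 79.2 ± 17.3 times in PDGF-BB, against 82.5 ± 26.0 times in Ctrl SMC (SD, n = 4, 4, 3 and 4). The Myocd-LSD1 ratios ran from 4.26 to 19.6 and overlapped those of Myocd-LSD1NF at its library 2 (19.1). They lay below the PDGF-BB ratios, of which the lowest was 64.3, and below those of Ctrl SMC, of which the lowest was 47.2. This ratio was chosen after the values were seen and was not tested.

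Myh3, the myosin heavy chain of embryonic skeletal muscle, was present in Ctrl SMC and close to 0 in Myocd-LSD1 and PDGF-BB. It had 0.24, 0, 0.1 and 0 TPM in Myocd-LSD1, 5.43, 0.98, 0.78 and 0.4 in Myocd-LSD1NF and 0.11, 0.1 and 0.04 in PDGF-BB, against 5.85, 37.8, 2.31 and 31.7 TPM in Ctrl SMC. Controls 2 and 4 were several times as high as controls 1 and 3, and Myocd-LSD1NF overlapped the controls through its library 1. Mean TPM was 0.438% of the control mean in Myocd-LSD1 and 0.429% in PDGF-BB, lower shares than those of Tnnc1. On the log2(TPM + 1) scale the fall was -3.59 ± 0.65 in Myocd-LSD1 (adjusted p = 0.000578) and -3.59 ± 0.70 in PDGF-BB (adjusted p = 0.00191). Myh3 passed the filter only through Ctrl SMC, so lower values elsewhere were built into its being tested. Myocd-LSD1NF missed the threshold (-2.46 ± 0.65, adjusted p = 0.0661) and passed it without its library 1 (0.0344) or without Ctrl SMC 3 (0.0107). The difference of Myocd-LSD1 from Myocd-LSD1NF was -1.13 ± 0.65 (95% interval -2.51 to 0.24, adjusted p = 0.197), and it passed with a pseudocount of 0.1 (adjusted p = 0.0160).

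Controls with high Myh3 were set beside other muscle genes. Relative to Myh11, the smooth muscle myosin heavy chain, Myh3 stood at 25.4%, 204%, 10.1% and 146% in controls 1 to 4. Myog, the myogenin gene of differentiating skeletal myoblasts, had 0, 0.35, 0.24 and 1.53 TPM there, and Cdh15, the cadherin of myoblasts, had 0.17, 0.15, 0.12 and 1.18 TPM. Control 4 thus held the highest Actc1, Myog and Cdh15 of the 4, and control 2 the highest Myh3. Of the other myoblast markers, Myod1 had 0, 0, 0 and 0.36 TPM and Pax7 had 0, 0, 0 and 0.06 TPM in controls 1 to 4. Chrna1 had 0, 0.16, 0 and 0 TPM there, so it was seen in control 2 only, and Myf5 was listed at 0 throughout. Outside Ctrl SMC, Myog had 0.07, 0.34 and 0.55 TPM in PDGF-BB and 0.3, 0.06, 0.27 and 0 in Myocd-LSD1, where Myh3 was at most 0.24 TPM. In Myocd-LSD1NF Myog was listed at 0 throughout. The part of these markers in the Myh3 values was not tested.

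Des, the intermediate filament protein of all muscle, was the only member that rose in a called comparison. It had 7.08, 6.64, 3.71 and 4.61 TPM in Myocd-LSD1, 1, 0.43, 0.42 and 0.18 in Myocd-LSD1NF and 1.26, 1.78 and 0.98 in PDGF-BB, against 0.61, 1.67, 0.47 and 0.73 TPM in Ctrl SMC. All Myocd-LSD1 libraries lay above all others. Mean TPM was 6.33 times the control mean in Myocd-LSD1 (log2 fold change 1.81 ± 0.23, adjusted p = 3.27e-05) and 10.9 times that of Myocd-LSD1NF (2.10 ± 0.23, adjusted p = 1.04e-05). Neither Myocd-LSD1NF (-0.30 ± 0.23, 95% interval -0.80 to 0.20, adjusted p = 0.594) nor PDGF-BB (0.35 ± 0.25, -0.19 to 0.89, adjusted p = 0.322) was called against Ctrl SMC.

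Ankrd1 split the Myocd-LSD1 libraries in pairs. It had 322, 15.03, 510.4 and 8.45 TPM in Myocd-LSD1, 923, 1878, 935 and 652 in Myocd-LSD1NF and 268, 275 and 349 in PDGF-BB, against 1173, 890.5, 930.6 and 654 TPM in Ctrl SMC. The Myocd-LSD1 and PDGF-BB libraries lay below all controls and all Myocd-LSD1NF libraries. Within Myocd-LSD1, libraries 2 and 4 were far lower than 1 and 3. The fall in Myocd-LSD1 was -3.66 ± 0.97 (adjusted p = 0.00925), and -1.14 ± 0.34 without libraries 2 and 4 (adjusted p = 0.0286). Against Myocd-LSD1NF it was -3.84 ± 0.97 (adjusted p = 0.00751), and -1.32 ± 0.34 without them (adjusted p = 0.0145). PDGF-BB was not called in the fit of all groups (-1.59 ± 1.05, 95% interval -3.83 to 0.64, adjusted p = 0.274). That fit shares its spread with Myocd-LSD1, and PDGF-BB was called in a fit of it and Ctrl SMC alone (adjusted p = 0.000613) and without Myocd-LSD1 libraries 2 and 4 (adjusted p = 0.00204). Myocd-LSD1NF was not called (0.18 ± 0.97, 95% interval -1.89 to 2.26, adjusted p = 0.959), and its direction turned without its library 2 (-0.11). Col1a1 had 10953, 25197, 7068 and 23037 TPM in Myocd-LSD1 libraries 1 to 4, so the same pair stood apart in it, and its part in the Ankrd1 values was not tested.

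Ckm, the creatine kinase of striated muscle, was detected above 1 TPM only in Ctrl SMC. It was listed at 0 in all 4 Myocd-LSD1 libraries and had 0.06, 0.29, 0.38 and 0 TPM in Myocd-LSD1NF and 0.27, 0.07 and 0.18 in PDGF-BB, against 2.7, 2.11, 2.96 and 1.54 TPM in Ctrl SMC. No library outside Ctrl SMC came near its lowest value. Ckm passed the filter only through Ctrl SMC, so lower values elsewhere were built into its being tested. The log2 fold change was -1.71 ± 0.17 in Myocd-LSD1 (adjusted p = 2.32e-06), -1.48 ± 0.17 in Myocd-LSD1NF (adjusted p = 0.000197) and -1.49 ± 0.18 in PDGF-BB (adjusted p = 5.89e-05). Between Myocd-LSD1 and Myocd-LSD1NF it was -0.23 ± 0.17 (95% interval -0.58 to 0.12, adjusted p = 0.313). Ckb, the creatine kinase of brain and smooth muscle, had 3.49, 2.63, 4.35 and 0.74 TPM in Myocd-LSD1, 22.7, 25.7, 17.8 and 0.55 in Myocd-LSD1NF and 42.8, 75.6 and 59.9 in PDGF-BB, against 90.9, 76.9, 51.9 and 47.35 TPM in Ctrl SMC. Ckb thus overlapped the controls in PDGF-BB, where every Ckm value was below them.

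**Figure D3:**
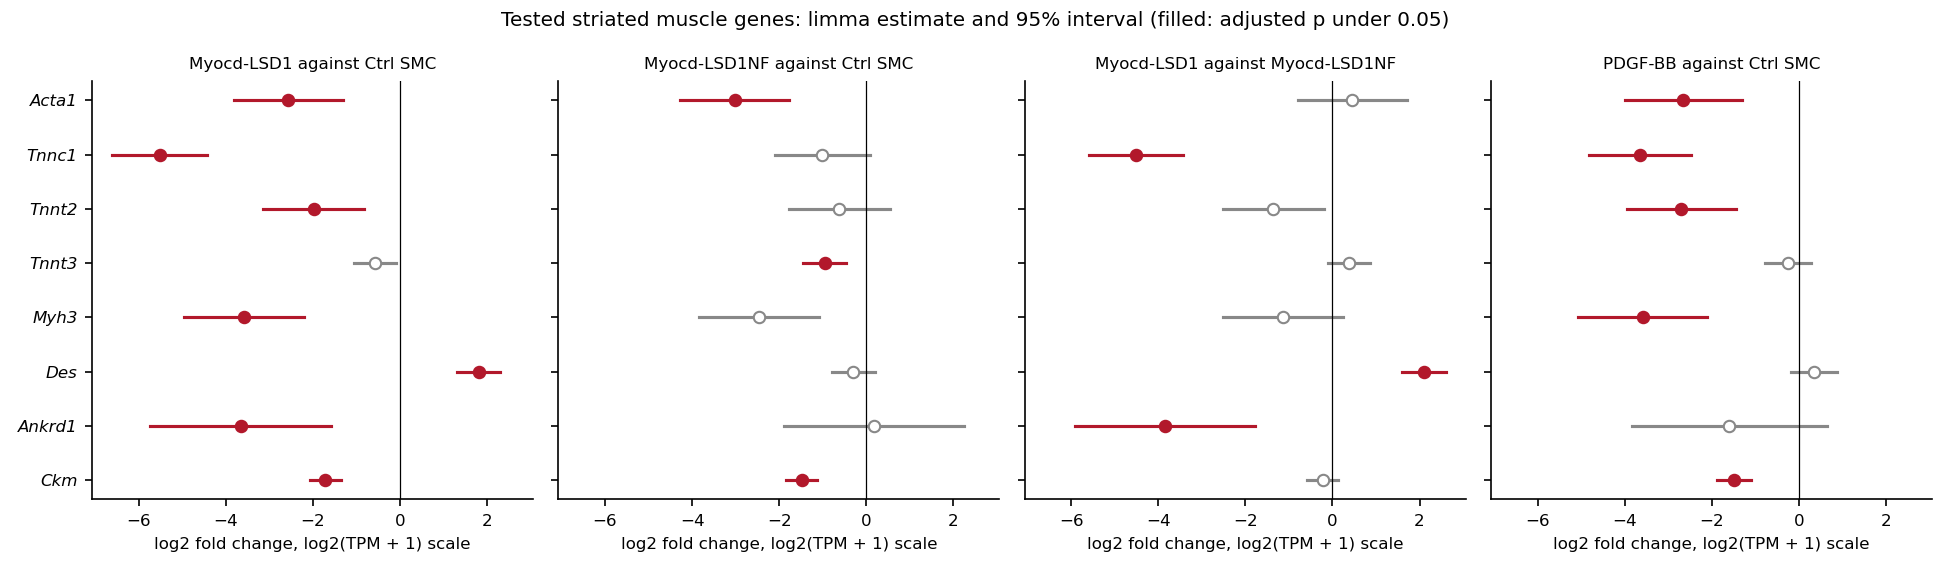
Log2 fold change on the log2(TPM + 1) scale (x) of the 8 tested genes (y) in 4 comparisons, as limma estimates (points) with 95% intervals (lines), filled where the adjusted p is under 0.05. With this pseudocount of 1, Tnnc1 stands at -5.52 in Myocd-LSD1 and -3.64 in PDGF-BB against Ctrl SMC, next to Myh3 at -3.59 in both, and Des alone is called above 0.

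Over the 4 comparisons the genes fell in different numbers. Myocd-LSD1 against Ctrl SMC called 6 of the 10 genes lower (Acta1, Tnnc1, Tnnt2, Myh3, Ankrd1 and Ckm) and 1 higher (Des), where 15.4% of all tested genes were called lower and 16.9% higher (32.2% in all). PDGF-BB against Ctrl SMC called 5 lower (Acta1, Tnnc1, Tnnt2, Myh3 and Ckm) and none higher, where 8.5% and 19.2% of all tested genes were called lower and higher (27.7% in all). Under median-of-ratios scaling 1683 genes were called higher and 1746 lower in PDGF-BB, in place of 2347 and 1037, since that scaling moved the median log2 fold change of all genes from 0.12 to -0.01. The directions of the tested members were the same under both scalings. Myocd-LSD1NF against Ctrl SMC called 3 lower (Acta1, Tnnt3 and Ckm), with a background of 1.74% called lower and 0.475% higher (2.21% in all). It had 58 genes higher and 212 lower in all, or 109 and 207 after that scaling. Myocd-LSD1 against Myocd-LSD1NF called Tnnc1 and Ankrd1 lower and Des higher, with a background of 12.7% lower and 19.1% higher (31.8% in all). It had 2331 genes higher and 1546 lower in all, or 2045 and 2135 after that scaling. The 3 comparisons with Ctrl SMC share those 4 libraries. Among the 6 genes that passed the filter without the help of Ctrl SMC, 4 were lower and 1 higher in Myocd-LSD1, 3 were lower in PDGF-BB and 2 in Myocd-LSD1NF. The median log2 fold change of the 8 tested genes was -2.27 in Myocd-LSD1, -0.98 in Myocd-LSD1NF and -2.12 in PDGF-BB, against 0.03, -0.05 and 0.12 over all tested genes. Without Myh3 and Ckm the medians were -2.27, -0.79 and -2.12.

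For the members, counts of genes whose groups did not overlap were close to the counts of calls. Over all tested genes 1214 did not overlap and 270 were called in Myocd-LSD1NF, and 5050 and 3384 in PDGF-BB, against Ctrl SMC. In Myocd-LSD1 against Ctrl SMC the numbers were 3725 and 3936, and in Myocd-LSD1 against Myocd-LSD1NF 3291 and 3877. In Myocd-LSD1, 6 of the 10 genes lay below Ctrl SMC in every library (Acta1, Tnnc1, Tnnt2, Myh3, Ankrd1 and Ckm) and Des lay above it, where 30.5% of all tested genes did not overlap. In Myocd-LSD1NF, Acta1, Tnnt3 and Ckm lay below Ctrl SMC throughout, where 7.23% of all tested genes did. Actc1 lay below it too, but at the edge of detection and not among the tested genes. Ckm, like Myh3 in the other comparisons with Ctrl SMC, passed the filter only through Ctrl SMC. In PDGF-BB the same 6 genes as in Myocd-LSD1 lay below Ctrl SMC, where 41.4% of all tested genes did not overlap, 29.4% lying higher and 12% lower in PDGF-BB. Between Myocd-LSD1 and Myocd-LSD1NF, Tnnc1, Myh3 and Ankrd1 were lower and Des higher without overlap, where 27% of all tested genes did not overlap.

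The wider striated muscle programme was read from a list of 88 genes, of which 83 were matched by symbol, 52 stayed under 1 TPM in every library and 26 passed the filter. The filter was passed by 7 of 19 thick filament, 2 of 10 thin filament and 5 of 19 titin and Z disc genes. It was also passed by 4 of 11 energy metabolism genes, 6 of 15 genes of excitation-contraction coupling and 2 of 14 regulators. Among the regulators Nkx2-5, Myf5, Myf6 and Tbx20 were listed at 0 throughout. Of all 32623 gene entries 12207 passed, so a low share is not particular to striated muscle genes. Myocd-LSD1 against Ctrl SMC called 17 of the 26 lower and 2 higher, with a median log2 fold change of -1.20. PDGF-BB called 11 lower and 1 higher (median -0.66) and Myocd-LSD1NF 2 lower (median -0.30). Against Myocd-LSD1NF, Myocd-LSD1 called 12 lower and 1 higher (median -0.65). Without Myocd-LSD1 libraries 2 and 4 it called 9 lower and 1 higher. There Mybpc2, Myom1, Tmod1, Flnc and Fabp3 lost their calls (adjusted p from 0.0663 to 0.0803), and some others gained one. Some of these genes passed the filter only through a group compared. Without Myl3, Mylpf, Tnnc2, Tmod1, Synpo2l and Hrc, which needed Ctrl SMC, and Myom2 and Gata4, which needed Myocd-LSD1, the comparison of Myocd-LSD1 with Ctrl SMC had 13 of 18 called lower and 0 higher (median -1.44). Without the first 6 of these, PDGF-BB had 7 of 20 lower and 1 higher (median -0.53). Myocd-LSD1NF kept its 2 calls among 19 (median -0.17), and Myocd-LSD1 against Myocd-LSD1NF had 12 of 24 lower and 0 higher (median -0.71). Of all tested genes 15.4% were called lower in Myocd-LSD1, 8.5% in PDGF-BB and 1.74% in Myocd-LSD1NF against Ctrl SMC. In Myocd-LSD1 against Myocd-LSD1NF 12.7% were called lower, and the median over all tested genes was 0.07. The other medians over all genes are those given above. Lmod2, Myh1, Myh4, Tcap and Ttn were not used here. Several genes of the list, among them Casq2, Pln, Flnc and Mef2c, are known in smooth muscle too.

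All 6 tested genes of excitation-contraction coupling, of 15 listed, were called lower in Myocd-LSD1, where 15.4% of all tested genes were. In PDGF-BB 4 of the 6 were called lower, where 8.5% of all tested genes were. Among both counts is Hrc, which passed the filter only through Ctrl SMC, and the Myocd-LSD1 call of Atp2a1 was lost without libraries 2 and 4 (adjusted p = 0.127). Casq2, the calcium buffer of cardiac sarcoplasmic reticulum that smooth muscle also uses, had 1.4, 1.35, 2.46 and 2.75 TPM in Myocd-LSD1, 51.1, 58.4, 39.6 and 52.4 in Myocd-LSD1NF and 5.45, 7.16 and 10.0 in PDGF-BB, against 33.9, 59.8, 43.25 and 80.5 TPM in Ctrl SMC. Myocd-LSD1NF and the controls overlapped, and the other groups lay below both. Its log2 fold change was -4.17 ± 0.25 in Myocd-LSD1 (adjusted p = 1.84e-08) and -2.66 ± 0.27 in PDGF-BB (adjusted p = 1.69e-05). Pln, phospholamban, the brake on the calcium pump, fell by 3.08 ± 0.57 on the log2 scale in Myocd-LSD1 (adjusted p = 0.000718) and by 2.01 ± 0.61 in PDGF-BB (adjusted p = 0.0245). The PDGF-BB call of Pln was lost without PDGF-BB 2 or 3 (adjusted p = 0.0841 and 0.0710) and without Ctrl SMC 2 or 3 (0.0556 and 0.0516). Pln had 17.9, 23.8, 13.4 and 0.87 TPM in Myocd-LSD1NF, so library 4 stood apart there, as it did in Ckb and Myom1. Atp2a1, the fast muscle calcium pump, was lower in PDGF-BB (-1.79 ± 0.37, adjusted p = 0.00267) and lower in Myocd-LSD1 than in Myocd-LSD1NF (-1.90 ± 0.34, adjusted p = 0.000625). Jph2, junctophilin, fell by 1.23 ± 0.25 on the log2 scale in Myocd-LSD1 (adjusted p = 0.00162).

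At the M line of the sarcomere the related genes Myom1 and Myom2, which encode myomesins that link thick filaments, moved in opposite directions in Myocd-LSD1. Myom2 had 3.28, 5.22, 2.05 and 14.0 TPM in Myocd-LSD1 and at most 0.02 TPM in the other 11 libraries (log2 fold change against Ctrl SMC 2.55 ± 0.34, adjusted p = 3.78e-05), and it passed the filter only through that line. Myom1 had 0.19, 0.21, 0.19 and 0.29 TPM in Myocd-LSD1, 5.38, 1.39, 3.47 and 0.17 in Myocd-LSD1NF and 0.64, 0.41 and 0.44 in PDGF-BB, against 7.7, 12.8, 8.15 and 4.74 TPM in Ctrl SMC. It fell by 2.87 ± 0.40 on the log2 scale in Myocd-LSD1 (adjusted p = 5.95e-05) and by 2.58 ± 0.43 in PDGF-BB (adjusted p = 0.000651). Mybpc2, the fast muscle myosin binding protein, was lower in Myocd-LSD1 than in Ctrl SMC (-1.65 ± 0.33, adjusted p = 0.00145), and Myl3, a ventricular light chain, was lower in PDGF-BB (-1.42 ± 0.31, adjusted p = 0.00377). Tmod1, tropomodulin, which caps thin filaments, fell by 1.18 ± 0.20 on the log2 scale in Myocd-LSD1 and by 0.90 ± 0.21 in PDGF-BB (adjusted p = 0.000322 and 0.00674). Myl3 and Tmod1 passed the filter only through Ctrl SMC, so their lower values elsewhere were built into their being tested. Gata4, a cardiac transcription factor, was the other gene of the list called higher in Myocd-LSD1 (0.87 ± 0.25, adjusted p = 0.0151), and it too passed the filter only with that line, in which 2 of its 3 libraries at 1 TPM or more lay. Mef2c, a muscle transcription factor that SMC also express, fell by 1.73 ± 0.28 on the log2 scale there (adjusted p = 0.000271).

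Z disc and energy genes followed. Ldb3, a Z disc PDZ-LIM protein, fell in Myocd-LSD1 (-1.81 ± 0.22, adjusted p = 1.77e-05), in Myocd-LSD1NF (-1.24 ± 0.22, adjusted p = 0.00723) and in PDGF-BB (-0.85 ± 0.24, adjusted p = 0.0159). The PDGF-BB call of Ldb3 was lost without PDGF-BB 1 (adjusted p = 0.0670) and with a pseudocount of 0.1 (0.0526). Xirp1, an actin-binding Xin repeat protein, fell in PDGF-BB (-2.63 ± 0.37, adjusted p = 0.000212) and in Myocd-LSD1 (-1.81 ± 0.35, adjusted p = 0.000944). Cryab, the small heat shock protein that protects desmin filaments, had 331 to 687 TPM over all libraries and was not called in Myocd-LSD1 (-0.38 ± 0.18, adjusted p = 0.133). Fabp3, the heart fatty acid binding protein, was called in both lines against Ctrl SMC, at -3.53 ± 0.41 in Myocd-LSD1 (adjusted p = 1.32e-05) and -2.05 ± 0.41 in Myocd-LSD1NF (adjusted p = 0.0180). The Myocd-LSD1NF call of Fabp3, whose library 4 was listed at 0, was lost with a pseudocount of 0.1 (0.102), with the compared groups alone (0.0866) and without Ctrl SMC 1 or 2 (0.0589 and 0.0723). Eno3, the muscle enolase, was the only gene of the list called higher in PDGF-BB (0.93 ± 0.26, adjusted p = 0.0144), a call lost without PDGF-BB 3 (adjusted p = 0.0755).

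**Figure D4:**
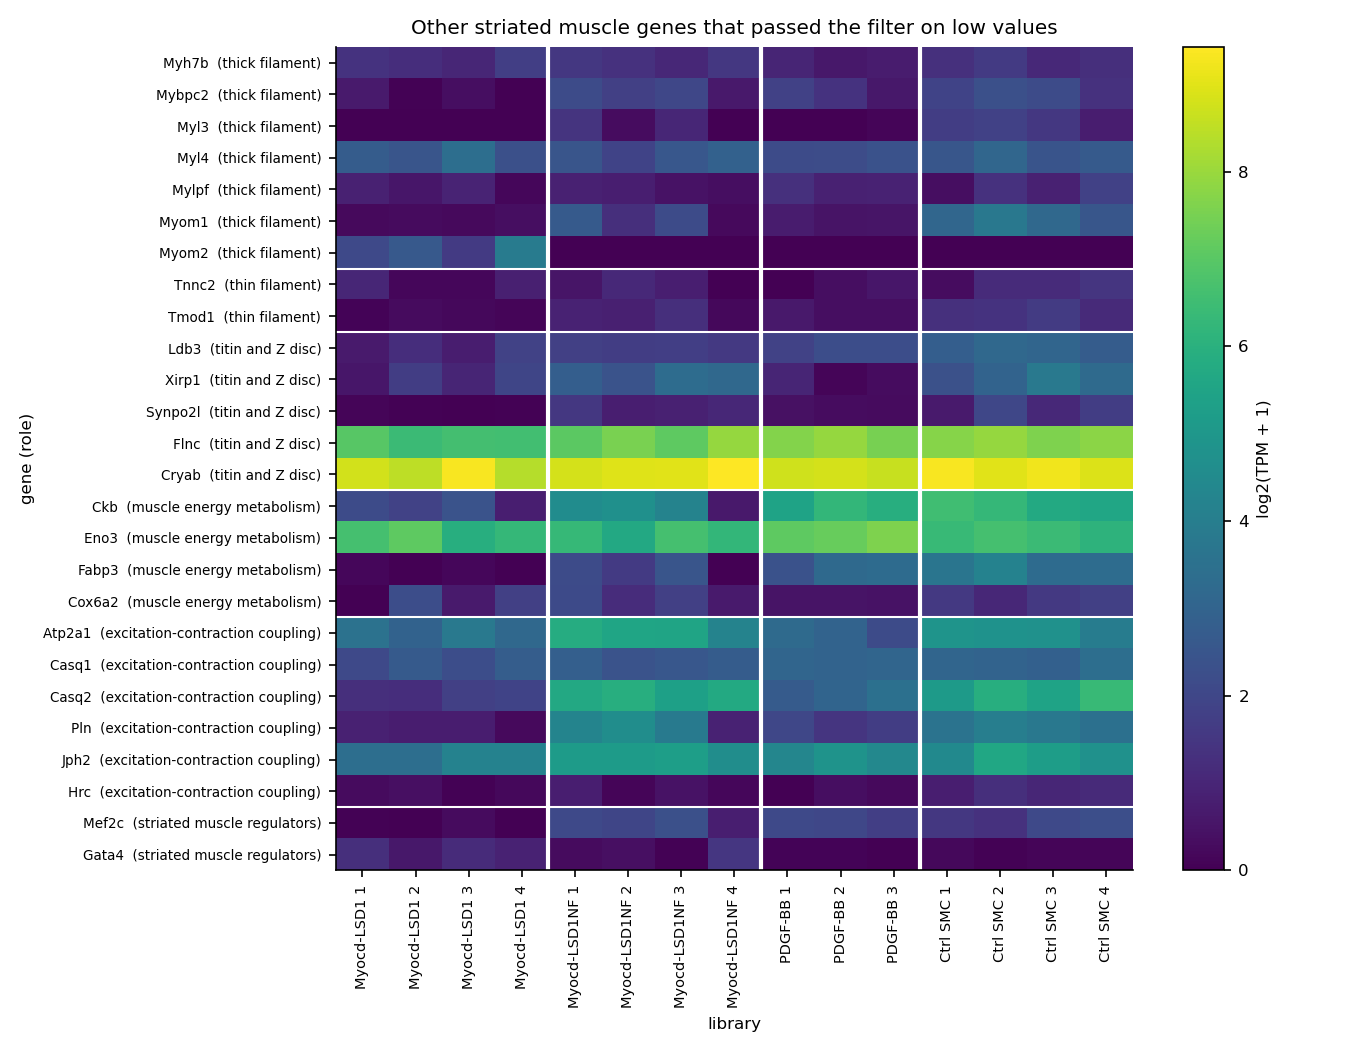
Level as log2(TPM + 1) (colour) of the 26 genes of the wider striated muscle list that passed the filter on low values (rows, by role) in the 15 libraries (columns, by group, white lines between groups). Myom2 is seen in Myocd-LSD1 with at most 0.02 TPM elsewhere, while Casq2 and Pln are low in Myocd-LSD1 and PDGF-BB.

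Genes with a symbol in the form of a locus identifier or numbered copy were left out of a search for genes similar to the members. For each tested member the remaining tested genes with the most similar levels over the 15 libraries were found by Pearson correlation of log2(TPM + 1). These points share libraries and fall into the 4 groups, so r is given as a description. Nearest to Tnnc1 were Tpm1, a tropomyosin (r = 0.995), and Tagln, transgelin (0.981), both contractile genes of SMC. Mean Tpm1 was 466.5 ± 152 TPM in Myocd-LSD1, 1426 ± 202 in Myocd-LSD1NF and 786 ± 142 in PDGF-BB, against 1881 ± 232 TPM in Ctrl SMC (SD, n = 4, 4, 3 and 4). Nearest to Ankrd1 were Akap5 (0.970) and Fgf13 (0.966), and to Acta1 were Mat1a, a methionine adenosyltransferase (0.940), and Rtn2, a reticulon (0.881). Nearest to Myh3 were Phyhipl (0.970) and Kcnma1, the large-conductance potassium channel (0.926), and to Ckm were Lrrtm3 (0.966) and Omd, osteomodulin (0.956). Tnnt2 stood nearest to Gng12 (0.920) and Plpp3 (0.917), and Tnnt3 to Amigo1 (0.898) and Lsr (0.886). Nearest to Des were Scyl3 (0.962) and Serpine2, a serine protease inhibitor (0.958), which averaged 224 ± 67.6 TPM in Myocd-LSD1, 8.89 ± 3.19 in Myocd-LSD1NF and 17.8 ± 2.78 in PDGF-BB, against 9.99 ± 2.49 TPM in Ctrl SMC (SD, n = 4, 4, 3 and 4).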

How the data were processed

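Stranded polyA libraries (TruSeq, per the labels' protocols) were analysed from 1 table of TPM deposited by the authors. Aligner, counting tool, build and annotation: not given in the sources used here. A further 4 columns of group means were left out. Entries at 1 TPM or more in 3 or more libraries were kept (12207 of 32623). Group means of log2(TPM + 1) over all libraries were fitted with limma 3.58.1 (eBayes with trend; R 4.3.3), with two-sided p-values adjusted over all tested genes. The fit was also run on simulated data, whose noise was normal and had the same spread in every group. Changes were added there only to genes of higher mean level, so members near 0 or with unequal spread were not covered. Equal replicate numbers were not taken as pairs in the main fit, and a replicate block is among the alternatives. Deviations of same-numbered libraries across groups correlated at over 0.1 in 11 of 21 pairs (range -0.225 to 0.576). Differently numbered libraries were not compared in this way, so whether equal numbers share a batch was not tested. Members, lists, comparisons and alternatives were chosen with earlier results of these data known. Named beyond the members were called genes of the wider list, at most 3 per role and comparison by size of change, the 2 genes most like each member, and smooth muscle references. Not all are reported, and troponin I genes, Ckb and Cryab levels, Col1a1, Kdm1a, Myog and Cdh15 were picked with their values known. The alternatives changed the pseudocount (0.1, 5), filter, scaling (median of ratios), replicate block, array weights, groups fitted and libraries included. Tables used Python 3.11.15 with numpy 2.4.6 and pandas 2.3.3. Figures used matplotlib 3.10.9.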

Additional observations from a re-analysis of the deposited data

Results flagged for a closer look

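In 28 combinations of a member and a group of 4 libraries with unequal values, 6 held a library whose gap to the nearest other exceeded the 95% critical value of Dixon's test. Chance flags about 1 in 20 groups of normally distributed values, and that rate need not hold for low TPM such as these. In 3 of the 6 the other 3 libraries of the group were listed at 0, so any value above 0 is set apart by construction. Actc1 was set apart in Myocd-LSD1 1 (0.58 TPM), Myocd-LSD1NF 2 (0.14 TPM) and Ctrl SMC 4 (5.4 TPM). Csrp3 was set apart in Myocd-LSD1 1 (0.07 TPM) and Ctrl SMC 4 (0.07 TPM). Both Csrp3 values and Actc1 in Myocd-LSD1NF 2 are such cases. Myh3 was set apart in Myocd-LSD1NF 1 (5.43 TPM).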

How the results depend on the processing

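TPM keep no depth, so values near 0 carry an unknown counting error. Numbers of members called were within 1.5 times the reported number under every alternative run except in Myocd-LSD1NF against Ctrl SMC, where leaving out 1 library gave 1 to 3 members (1 without Ctrl SMC 1). In that comparison the wider list, with 2 called, had 1 with a pseudocount of 0.1, 4 with a pseudocount of 5, 5 with no filter, 4 with the replicate number as a block, 4 with array weights, 1 with the compared groups alone, and 1 to 4 without single libraries (4 without Myocd-LSD1NF 1, 1 without Ctrl SMC 1 or 2). All-gene calls there were 270 as reported, 919 with array weights, 176 with the compared groups alone and 109 to 312 without single libraries (128 without Myocd-LSD1NF 2, 109, 112 and 171 without Ctrl SMC 1, 2 and 3). In PDGF-BB against Ctrl SMC they were 3384, and 2137 without PDGF-BB 3. The block changed no call of a member. Of the members' log2 fold changes under alternatives, 704 kept direction and side of the threshold, 16 lost the call, 13 gained it and 3 turned direction. These were Acta1 in Myocd-LSD1 against Myocd-LSD1NF (-0.014 with array weights, -0.34 without Myocd-LSD1NF 4, and up to 0.86 without other single libraries) and Ankrd1 in Myocd-LSD1NF against Ctrl SMC (-0.11 without Myocd-LSD1NF 2, and up to 0.40 without others). None of the 3 was called. The causes were not tested.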
